A study of Mus musculus with 12 samples.

Results

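Stage1 against MEF compared the RNA of the earliest sorted reprogramming cells of this mouse series with that of the starting cells, mouse embryonic fibroblasts (MEF), the mesenchymal cells grown from embryos. The comparison used 6 of the 12 libraries, chosen by title: 3 titled MEF and 3 titled Stage1. All carried the strain label Mixed (C57BL/6 x 129). Per the series text, Stage1 was day 6 of reprogramming and its cells were sorted for Oct4-GFP, a fluorescent reporter of the pluripotency gene Pou5f1, whereas MEF were not sorted. The other 6 libraries were Stage2, a further 4 days on, and established induced pluripotent stem cells, and they entered the fit so that all groups shared an estimate of the spread. The sources used here name neither a reprogramming agent nor a transgene, and do not say whether the 3 libraries of a group came from separate animals or cultures, so a p-value here reflects only how far these libraries lie apart. The stage given among the characteristics named another group than the title in 12 of 12 libraries, and the sort marker shifted with it, so groups were taken from the titles. Sorting, culture, cell state and the composition of the libraries (given below) moved together between the groups and cannot be told apart. In these bulk samples fewer cells of a type and less RNA per cell cannot be told apart either.

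Reprogramming replaces the programme of a fibroblast by that of an early embryonic cell. Fibroblasts are large, adherent and secretory: they build stress fibres and caveolae, read growth factors and chemokines through many receptors, and export matrix through an enlarged secretory and lysosomal system. Pluripotent cells are small, have a high nucleus-to-cytoplasm ratio, divide with short gap phases, and are known for active ribosome production, strict DNA repair and a distinct use of metabolites. Marker sets of fibroblasts, pluripotency, epithelium and the cell cycle are left aside below except as a check of the labels. The account turns on the gene families around them. Genes of this kind were not taken out of the counts of families to which they belong.

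Reads counted on genes numbered 8916223 to 19011944 in the MEF libraries and 11676480 to 14395538 at Stage1. Levels are TMM-scaled CPM (read counts relative to library size), given per library in the order of the replicate numbers, or as mean ± SD of 3 libraries, and 2 values joined by "to" are the means of MEF and of Stage1. A gene was called higher or lower where its p from edgeR's quasi-likelihood test, adjusted after Benjamini and Hochberg over all genes tested, was below 0.05. Log2 fold changes are Stage1 over MEF, with their standard error (SE). Of 14770 genes tested, 80.4% were called, 44.2% higher and 36.1% lower at Stage1, and the median log2 fold change of all of them was 0.27. The libraries of both groups did not overlap in 79.2% of the genes. Every count of family members below has to be read against these shares. The titles fitted their markers: of 37 fibroblast markers 37 were lower at Stage1, and of 34 pluripotency markers 34 were higher. These lists were chosen with earlier results of these data known, so the fit is no independent check. Reads that the read counter HTSeq placed in no counted feature made up 8.86% to 9.42% of reads in MEF and 38.1% to 45.2% at Stage1. The counts do not tell whether such reads lay between genes or in uncounted parts of genes such as introns. Structural RNA genes took 4.63% to 12.9% of gene counts in MEF and 1.02% to 1.52% at Stage1. Genes with at least 5 CPM varied more among the MEF libraries, with a median coefficient of variation of 20.9% against 9.37% at Stage1.

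The direction of change differed between gene families, and place in the cell did not by itself set it. Nuclear machines (DNA repair, cohesin, histone chaperones, ribosome production, RNA polymerases, nuclear pores) were mostly higher at Stage1. Outside the nucleus, 74.4% of the aminoacyl-tRNA synthetase list were higher as well, whereas 71.0% of nuclear receptors were lower. Families of the cell surface, the secretory route and the lysosome (annexins, S100 proteins, caveolae, cathepsins, sulphate-transferring enzymes, chemokines) were mostly lower. Metabolic, channel and transcription factor families contained members that moved in opposite directions. The lists were described by their counts and medians beside those of all genes, and no test of a list was made. Of 84 lists with at least 5 members higher, that number moved by more than 1.5 times in 28 when fitted on the 6 libraries alone and in 16 with no filter on low counts, whereas of 78 lists with at least 5 members lower 0 did under either setting. The brackets "range" after a number higher give its lowest and highest value over the other settings, the 2-fold threshold left aside, where it moved by more than 1.5 times. They are left out for microRNA rows and for some lists with few higher members. These are annexins and S100 proteins (0 to 1), galectins and blood and macrophage markers (0 to 2), and cartilage and bone markers (1 to 2).

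**Figure D1:**
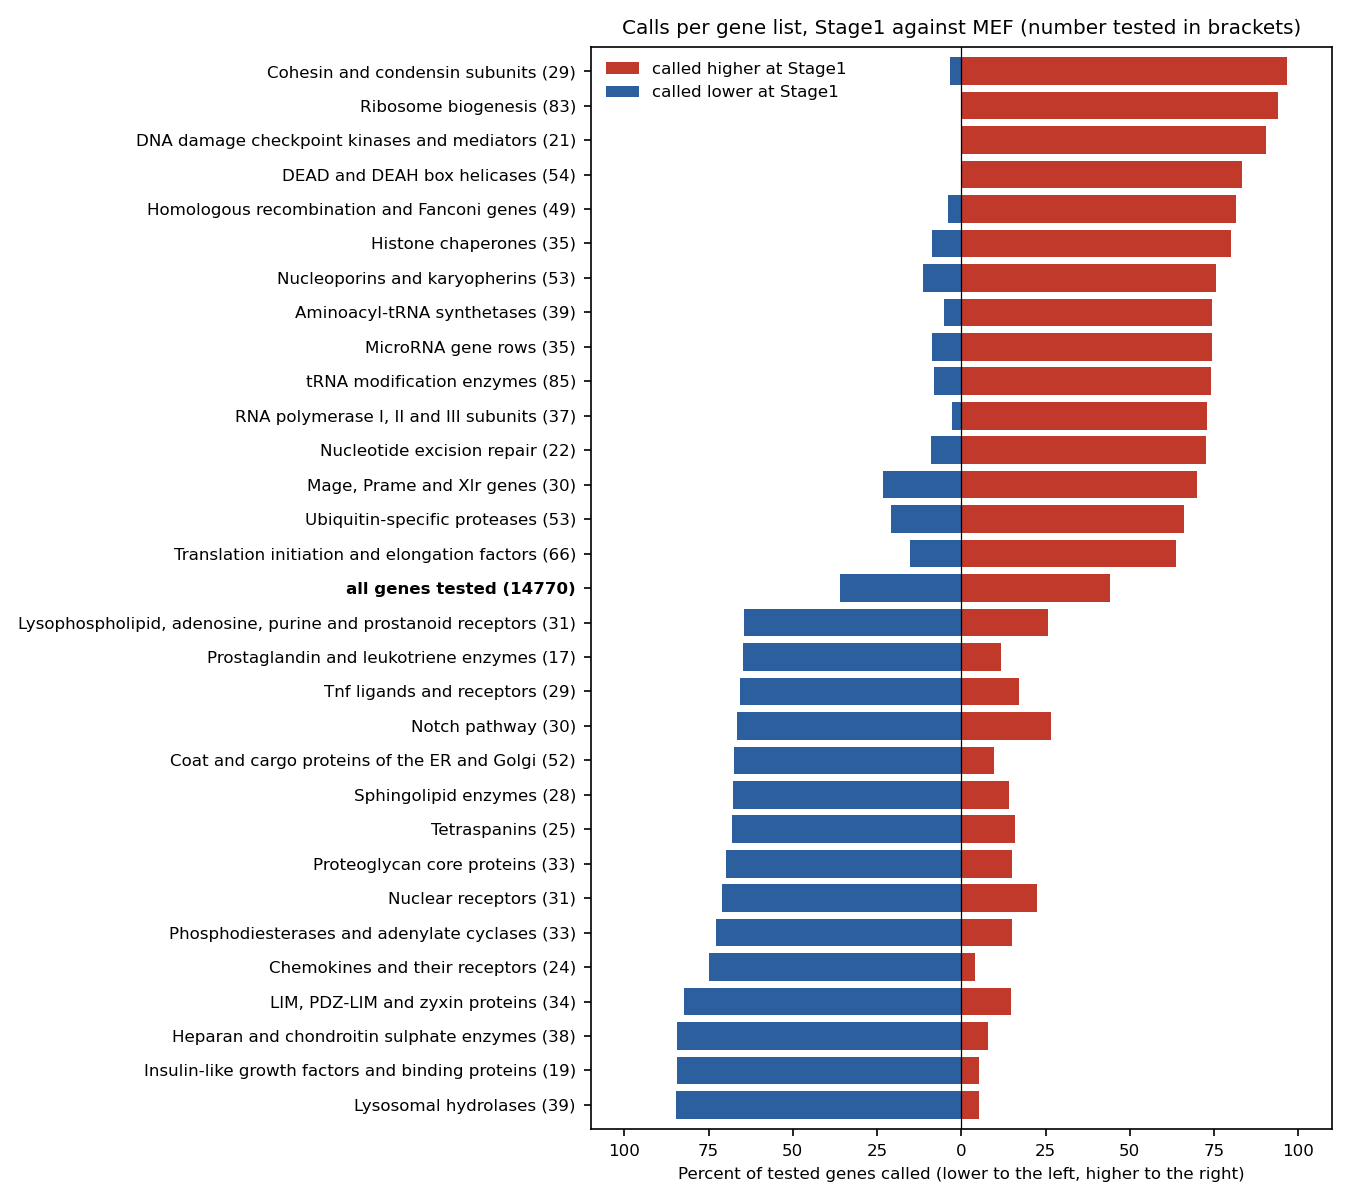
Percent of the tested members of 30 gene lists called higher (to the right) and called lower (to the left) at Stage1, with the number tested in brackets and all genes tested in bold. The lists are the 15 with the largest share higher and the 15 with the largest share lower among those with at least 15 tested members: cohesin and condensin stand at the top, with 96.6% higher, and lysosomal hydrolases at the bottom, with 84.6% lower, beside 44.2% and 36.1% of all genes.

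DNA repair genes were higher at Stage1 across pathways. Mismatch repair corrects copying errors behind the replication fork, and its 10 genes in the files were all tested: 10 were higher, 0 lower and 0 not called, and the median log2 fold change was 3.40. Msh6, a reader of mismatches (chromosome 17, 87975062 to 87990892, mm10), stood at 28.4, 17.2 and 30.7 CPM in MEF and 1013, 1113 and 1128 CPM at Stage1. The lowest Stage1 library was more than 10 times the highest MEF library, and the log2 fold change was 5.42 ± 0.20 (SE). Exo1, the exonuclease that removes the faulty strand, rose from 6.03 ± 1.05 to 134 ± 6.32 CPM.

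Homologous recombination and the Fanconi pathway mend double-strand breaks and crosslinks with the sister copy as template. Of 49 such genes tested (49 in the files), 40 were higher, 2 lower and 7 not called, and the median log2 fold change was 2.35. Brca1 and its partner Bard1 together form a ubiquitin ligase at breaks. Brca1 stood at 11.6, 9.21 and 13.8 CPM in MEF and 499.9, 475 and 454 CPM at Stage1, and Bard1 at 2.38, 3.74 and 2.95 CPM in MEF and 64.8, 56.8 and 63.1 CPM at Stage1, with no overlap of the groups in either. Dna2, the nuclease and helicase of end resection, rose from 2.63 ± 0.772 to 142 ± 13.7 CPM, and Fanci, which marks crosslinks, from 4.35 ± 1.82 to 113 ± 13.5 CPM. The exceptions were Mus81, a junction nuclease, at 11.3 to 4.91 CPM, and Sfr1, an accessory factor of recombination, at 527 to 372 CPM. The call of Sfr1 was lost under some of the other settings.

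End joining and the base repair pathways were less uniform. Of 12 end-joining genes, 8 were higher, 0 lower and 4 not called, at a median log2 fold change of 1.74. Rif1, which protects broken ends and sets replication timing, stood at 27.8, 27.7 and 33.4 CPM in MEF and 1122, 1368 and 1421 CPM at Stage1, without overlap of the groups. The kinase gene Prkdc rose from 19.2 to 166 CPM and the Ku genes Xrcc5 and Xrcc6 from 30.1 to 293 and from 27.5 to 179 CPM. In base excision repair, 14 of 23 tested genes (median log2 fold change 1.70) were higher and 6 lower. Parp1, the sensor of nicked DNA, rose from 43.4 ± 5.06 to 983 ± 39.0 CPM and the uracil glycosylase gene Ung from 5.74 ± 3.17 to 96.4 ± 3.94 CPM. Ogg1, the glycosylase for oxidised guanine, fell from 20.4 ± 2.69 to 4.98 ± 0.944 CPM, and Parp3 from 51.4 ± 14.4 to 1.97 ± 0.375 CPM. Nucleotide excision repair, which cuts out bulky lesions, had 16 of 22 genes (median log2 fold change 0.87) higher. Among them were the damage recognition genes Xpc (8.78 to 57.3 CPM) and Ddb2 (0.764 to 15.6 CPM), whereas Ddb1 was not called, at 1097 to 1151 CPM. Checkpoint mediators followed: of 21 tested (21 in the files), 19 were higher, 0 lower and 2 not called, and the median log2 fold change was 1.99. Timeless, the fork protection gene, rose from 4.25 ± 1.24 to 124 ± 9.73 CPM, its partner Tipin from 36.8 ± 8.13 to 276 ± 37.6 CPM and the kinase gene Chek1 from 6.94 ± 1.35 to 111 ± 5.53 CPM. Adjusted p-values (edgeR) were 1.03e-13 for Msh6, 1.36e-14 for Brca1, 3.71e-13 for Bard1, 1.55e-14 for Rif1, 4.81e-14 for Parp1 and 2.73e-13 for Timeless.

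Cohesin holds sister chromatids together and condensin compacts them. Of 29 subunits and regulators tested (30 in the files), 28 were higher, 1 lower and 0 not called, and the median log2 fold change was 2.80. Esco2, which acetylates cohesin in S phase, stood at 13.5, 9.28 and 10.2 CPM in MEF and 192, 221 and 218 CPM at Stage1. The condensin gene Ncapg rose from 22.1 ± 0.934 to 334 ± 24.3 CPM, the shared core gene Smc4 from 129 ± 9.94 to 981 ± 53.3 CPM and Wapal, the cohesin releaser, from 86.8 ± 11.9 to 890.4 ± 90.9 CPM. The meiotic subunit genes Rec8 and Stag3 rose as well but to low levels, 6.95 and 15.3 CPM. The lower member was Mau2, a part of the cohesin loader, at 57.0 to 42.0 CPM, and its call was lost under some other settings.

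Histone chaperones escort histones to and from DNA. Of 35 tested (36 in the files), 28 were higher, 3 lower and 4 not called, and the median log2 fold change was 1.88. Nasp, the carrier of linker and H3 histones, stood at 45.8, 32.6 and 42.0 CPM in MEF and 1412, 1950 and 1913 CPM at Stage1. Atrx, which places the variant H3.3 in heterochromatin, stood at 208, 115 and 176 CPM in MEF and 1709, 2104 and 2150.3 CPM at Stage1. Npm1, the abundant nucleolar chaperone, stood at 1702, 1515 and 1156 CPM in MEF and 9222, 12626 and 12947 CPM at Stage1. In each of these genes Stage1 replicate 1 was the lowest of its group and still several times the highest MEF library. Chaf1a, the large subunit of the replication-coupled assembly factor, rose from 7.50 ± 2.33 to 134 ± 14.3 CPM, and Set from 496 ± 74.7 to 4372 ± 706 CPM. Histone variants split: H2afz (H2A.Z) rose from 133 ± 52.8 to 800 ± 74.8 CPM and Cenpa, the centromeric histone H3, from 21.9 ± 6.37 to 90.9 ± 2.03 CPM. H1f0, the linker histone of resting cells, fell from 139 ± 34.5 to 74.6 ± 7.68 CPM, and the replication-linked Hist1h1a rose from 52.4 ± 21.6 to 429 ± 80.0 CPM. The H3.3 genes went apart as well, with H3f3a at 677 to 292 CPM and H3f3b at 362 to 631 CPM, and so did the macroH2A genes, with H2afy at 130.2 to 284 and H2afy2 at 36.1 to 20.2 CPM. Among 18 histone deacetylases and sirtuins, 8 (range 5 to 9) were higher, 5 lower and 5 not called, at a median log2 fold change of 0.06. Hdac6, a mostly cytoplasmic deacetylase of tubulin, rose from 10.5 ± 4.72 to 139 ± 13.3 CPM, Sirt1 from 18.1 ± 3.15 to 133 ± 22.6 CPM, and Hdac7, a class IIa enzyme, fell from 67.8 ± 25.8 to 2.31 ± 0.467 CPM.

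**Figure D2:**
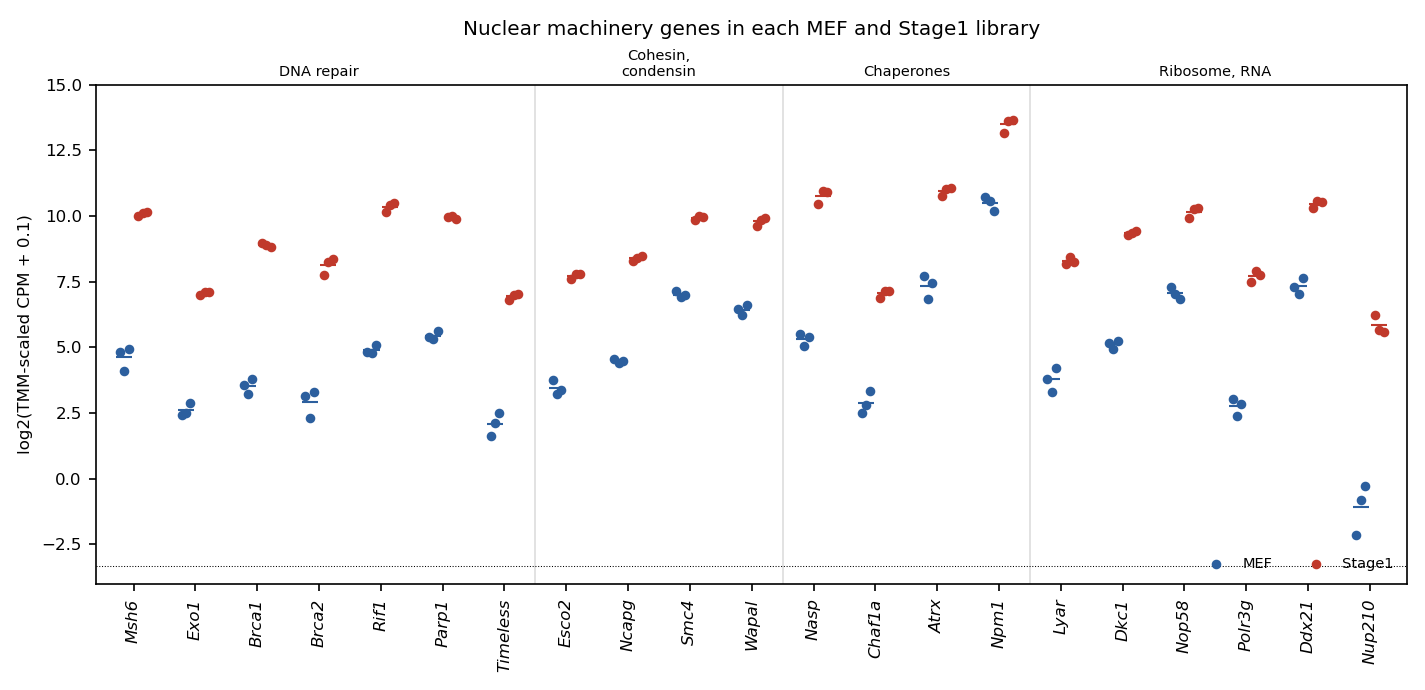
Level of 21 genes of DNA repair, chromatin, ribosome production and nuclear pores in each library, as log2(TMM-scaled CPM + 0.1), with a short line at each group's mean on that scale and the dotted line marking 0 CPM. The 3 Stage1 libraries of every gene shown lie above the 3 MEF libraries, with the widest gap in Nup210 (0.438 to 58.3 CPM).

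Part of these genes carry E2F sites close to their start. E2F factors drive genes of S phase, and their sites were searched as TTTCCCGC and TTTGGCGC on both strands in the 250 bases before each start that RefSeq lists (GRCm38.p6, the same assembly as mm10). Of 27025 genes with a promoter in the table, 1.51% held such a site, and of the 10733 tested genes among them 2.74% did. The shares were 19.05% of 21 cohesin and condensin genes (4 genes), 28.6% of 7 mismatch repair genes (2 genes), 7.89% of 38 recombination genes (3 genes) and 2.82% of 71 ribosome production genes (2 genes). The part of the Bard1 window that lies before the GENCODE gene is shown as an example, on the minus strand at chr1:71103147-71103222, with the E2F letters in capitals.
Bard1: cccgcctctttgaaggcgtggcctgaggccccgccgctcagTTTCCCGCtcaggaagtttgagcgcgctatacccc
A match is a description of letters, not of a bound site.

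Ribosome production genes were almost all higher. Making ribosomes needs RNA polymerase I in the nucleolus and many processing factors that cut, modify and fold ribosomal RNA. Of 83 genes of this list tested (83 in the files), 78 were higher, 0 lower and 5 not called, and the median log2 fold change was 2.06. Dkc1, the pseudouridine synthase of H/ACA particles (also part of telomerase), stood at 36.2, 30.7 and 37.8 CPM in MEF and 619, 649 and 683 CPM at Stage1. Lyar, a nucleolar growth regulator, stood at 13.9, 9.68 and 18.6 CPM in MEF and 289, 345 and 303 CPM at Stage1. Nop58, a core protein of box C/D particles, rose from 134 ± 20.8 to 1157 ± 175 CPM and the helicase gene Ddx21 from 163 ± 34.4 to 1402 ± 135 CPM. For Dkc1, Lyar and Nop58 the log2 fold changes were 4.22 ± 0.14, 4.47 ± 0.21 and 3.11 ± 0.17. Of 54 DEAD and DEAH box helicases, enzymes that remodel RNA, 45 were higher, 0 lower and 9 not called, and the median log2 fold change was 1.47. Dhx9 rose from 36.3 to 318 CPM and Ddx3x from 286 to 1575 CPM.

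RNA polymerase subunits were higher in most cases. Of 37 such genes, 27 were higher, 1 lower and 9 not called, at a median log2 fold change of 1.23. Polr3g, a subunit of RNA polymerase III that differs between proliferating and differentiated cells, stood at 8.13, 5.07 and 7.11 CPM in MEF and 181, 241 and 216 CPM at Stage1, and its log2 fold change was 4.99 ± 0.19 (SE). Polr2b, the second largest subunit of RNA polymerase II, rose from 77.1 ± 7.96 to 498 ± 32.9 CPM. Polr3k, a small subunit, fell from 53.8 ± 12.6 to 27.5 ± 2.86 CPM.

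Genes of translation were mostly higher. A list of tRNA modification enzymes and of the Mettl and Nsun families they belong to was made by gene name, so it also holds methylases of other targets. Of its 85 tested members (93 in the files), 63 were higher, 7 lower and 15 not called, at a median log2 fold change of 1.09. Nsun2, a cytosine methylase of tRNA, rose from 108 ± 2.14 to 687 ± 20.9 CPM, and Mettl14, a subunit of the adenosine methylase of mRNA, from 8.29 ± 1.46 to 57.3 ± 3.95 CPM. Of 39 aminoacyl-tRNA synthetases and partners, which load tRNA with amino acids, 29 were higher, 2 lower and 8 not called, and the median log2 fold change was 0.95. The gene of the mitochondrial enzyme Tars2 rose from 16.2 ± 2.98 to 75.3 ± 1.76 CPM. Of 66 translation factors tested (70 in the files), 42 were higher, 10 lower and 14 not called, and the median log2 fold change was 0.62. Eif4a2 rose from 199.7 ± 37.4 to 1466 ± 80.4 CPM and Eif3a from 370.3 ± 119 to 1744 ± 133 CPM. Eef1a1, the most abundant of them, was lower, at 14305, 18006 and 14289.5 CPM in MEF and 11034, 10672 and 10735 CPM at Stage1, and Eif4e3 fell from 21.9 ± 7.41 to 0.392 ± 0.0795 CPM. Ribosomal protein paralogs diverged: Rpl22 went from 567 to 873 CPM and its paralog Rpl22l1 from 169.7 to 45.2 CPM in the opposite direction. Rpl10 fell from 2471 to 928 CPM, and reads of this gene can be shared with processed copies.

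Nuclear pores and transport receptors were mostly higher. Of 53 tested (55 in the files), 40 were higher, 6 lower and 7 not called, and the median log2 fold change was 1.49. Nup210, a membrane nucleoporin that differs between cell types, stood at 0.125, 0.467 and 0.723 CPM in MEF and 75.8, 50.9 and 48.3 CPM at Stage1. The MEF libraries together held 20 counts of it, so the size of the fold rests on few reads. Nup107 of the pore scaffold rose from 29.9 ± 5.06 to 268 ± 12.6 CPM, the basket gene Tpr from 222 ± 49.7 to 1181 ± 103 CPM and the import receptor gene Kpnb1 from 475 ± 114 to 1636 ± 147 CPM. Ipo13 fell from 33.3 ± 8.19 to 9.86 ± 0.492 CPM and Kpna4 from 262 ± 59.2 to 147 ± 13.4 CPM.

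MicroRNA genes appeared in the count tables as rows for precursors or host transcripts, which are no measure of mature microRNA. Of 663 rows in the files 35 were tested, and 26 were higher, 3 lower and 6 not called. Fitted on the 6 libraries alone 16 were higher, and with no filter on low counts 58. Of the 32 tested rows outside host genes 31 matched a mature sequence in RefSeq (GRCm38.p6). Mir17hg, the host of the miR-17 to miR-92 cluster (chromosome 14, 115042879 to 115046727), stood at 2.88, 0.200 and 1.75 CPM in MEF and 117, 126 and 134 CPM at Stage1. The row Mirlet7a-1 stood at 0, 0 and 0 CPM in MEF and 10.6, 27.4 and 36.5 CPM at Stage1, at least 314-fold higher (against 3 counts over the MEF group). Mir19a stood at 0.125, 0 and 0 CPM in MEF and 5.52, 7.24 and 7.48 CPM at Stage1, a ratio of 263 (95% counting interval 46.8 to 10444). Mir290, matched by a synonym to the precursor RefSeq calls Mir290a, had no count in MEF and 4.01, 4.83 and 2.69 CPM at Stage1. How reads that overlap a host gene were divided is not given in the sources used here.

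The higher rows included groups that share a seed, the bases 2 to 8 that pair with targets, set in capitals here. The seed AAAGUGC was shared by 3 rows, GAGGUAG by 3, and 3 other seeds by 2 rows each. The first set belongs to the family known from embryonic stem cells and proliferating cells, and the second is the let-7 family, whose maturation Lin28 proteins block.
miR-17-5p: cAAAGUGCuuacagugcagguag
miR-20a-5p: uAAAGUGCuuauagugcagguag
miR-93-5p: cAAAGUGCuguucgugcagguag
miR-290a-3p: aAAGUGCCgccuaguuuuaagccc
let-7a-5p: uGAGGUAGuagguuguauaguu
let-7d-5p: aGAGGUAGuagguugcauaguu
miR-98-5p: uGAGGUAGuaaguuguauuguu
The seed of miR-290a-3p, of the cluster known from mouse embryonic stem cells, is AAGUGCC and is shown beside the first set because of its likeness. The rows of Mir17, Mir20a, Mir93, Mirlet7d and Mir98 had mean levels of 1.08, 1.27, 0.716, 1.27 and 2.12 CPM at Stage1. Among the lower rows were the host transcripts Mir143hg (12.8 to 0.370 CPM) and Mir22hg (38.3 to 1.43 CPM), known from smooth muscle and from differentiated cells. The enzymes of microRNA maturation were largely higher: 13 of 21 (median log2 fold change 0.63), with Dgcr8 at 55.2 to 213 CPM, Dicer1 at 49.7 to 165 CPM and Trim71, a ubiquitin ligase and let-7 target, at 1.63, 1.14 and 5.12 CPM in MEF and 194, 188 and 196 CPM at Stage1. Tarbp2 and Prkra, the double-stranded RNA partners of Dicer, were lower, at 30.0 to 16.4 and 30.2 to 11.9 CPM.

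Transcription factor families divided by kind. Their counts include pluripotency genes among the higher members, such as Zfp42, Sox2, Pou5f1, Esrrb, Nr5a2 and Nr0b1. The Zfp genes encode mostly zinc-finger proteins, many with a KRAB domain that recruits Trim28 to silence transposons. Of 339 tested (357 in the files), 199 were higher, 56 lower and 84 not called, and the median log2 fold change was 0.83. The chromosomes with the most tested members were 7 (45 of 82 higher, 15 lower), 17 (29 of 43 higher, 3 lower) and 13 (23 of 30 higher, 1 lower). Over all genes tested on these chromosomes 41.7%, 48.0% and 49.4% were called higher. On chromosome 6, 4 of 17 were higher, 5 lower and 8 not called, beside 42.1% higher over all genes tested there. Zfp936 stood at 0.125, 0 and 0 CPM in MEF and 17.1, 30.2 and 37.2 CPM at Stage1, a ratio of 1082 (95% counting interval 194 to 42774), and Zfp345 rose from 0.111 ± 0.193 to 28.4 ± 5.79 CPM. Zfp819 had no count in MEF and 9.53, 8.76 and 13.4 CPM at Stage1. Lower members included Zfp703 (28.6 to 0.132 CPM) and Zfp36 (54.2 to 2.08 CPM), an mRNA decay factor that is no transcription factor. Trim28 itself rose from 169 ± 48.4 to 542 ± 19.2 CPM. Close copies within this family can share reads, so values of single members are uncertain. Of 70 tested Zbtb and Zscan genes, 36 were higher, 10 lower and 24 not called, at a median log2 fold change of 0.68. Zbtb10 rose from 17.7 ± 3.95 to 214 ± 9.55 CPM and Zbtb44 from 25.4 ± 1.27 to 221 ± 9.94 CPM, and Zbtb4 fell from 81.7 ± 31.4 to 3.14 ± 0.898 CPM.

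Nuclear receptors were mostly lower by number: of 31 tested (49 in the files), 7 (range 4 to 13) were higher, 22 lower and 2 not called. The median log2 fold change was -2.12, although the summed level of all 49 went from 679 ± 106 to 909 ± 8.75 CPM. The falls included Vdr, the vitamin D receptor, from 20.0011 ± 9.09 to 0.332 ± 0.438 CPM, Nr2f2, an orphan receptor of mesenchyme, from 20.9 ± 4.11 to 2.00 ± 1.14 CPM, and Nr1d1 of the clock from 20.4 ± 5.72 to 2.11 ± 0.458 CPM. Nr6a1, the germ cell nuclear factor, rose from 1.86 ± 0.887 to 139 ± 12.8 CPM, whereas Nr2c2 was not called at 75.2 to 78.4 CPM. Tissue factors of the basic helix-loop-helix class fell in 14 of 26 cases (median log2 fold change -2.16) and rose in 6 (range 2 to 11), with falls of Twist2 from 87.1 ± 13.8 to 0.186 ± 0.0938 CPM and of Ebf1 from 23.3 ± 1.25 to 0.854 ± 0.359 CPM. Among Sox and T-box factors 13 rose and 8 fell of 25 (median log2 fold change 1.62). Sox15, a factor close to Sox2 in sequence, stood at 0, 0.200 and 0.361 CPM in MEF and 29.9, 41.9 and 44.3 CPM at Stage1, and Mga, a T-box partner of Max, rose from 145 ± 15.9 to 721 ± 45.7 CPM. Sox4, Sox9 and Tbx15 fell, from 68.3 to 1.71, from 11.2 to 0.397 and from 115 to 11.6 CPM. Forkhead factors numbered 11 (range 6 to 13) higher and 11 lower of 29 (median log2 fold change -0.10): Foxc2, Foxs1 and Foxf1 of mesenchyme fell to 0.0230, 0.181 and 0.180 CPM, and Foxd3, absent from the MEF counts, reached 7.87, 13.9 and 13.5 CPM. Homeobox factors outside the Hox clusters numbered 32 (range 21 to 51) higher and 28 lower of 67 (median log2 fold change -0.05). Among the 36 with at least 5 CPM in a group 10 were higher and 22 lower, at a median of -1.91, and on the 6 libraries alone 21 were higher and 27 lower. Prrx1, a limb and craniofacial mesenchyme factor, stood at 928, 816 and 971 CPM in MEF and 1.93, 1.61 and 2.27 CPM at Stage1, and Pou2f1, the widely expressed Oct1, rose from 18.7 ± 0.266 to 164 ± 11.5 CPM.

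Some X-linked and other reproductive genes were higher at Stage1, and many members of these families were too low to be tested. Of 43 Rhox, Obox and similar homeobox genes in the files 7 were tested, and 6 (range 4 to 10) were higher. Rhox5 stood at 1.25, 0.668 and 0.422 CPM in MEF and 44.8, 70.4 and 67.1 CPM at Stage1. Rhox6, without a count in MEF, stood at 42.5, 29.1 and 23.8 CPM, at least 429-fold higher, and Rhox9 at 10.2, 6.70 and 7.82 CPM. Among 30 tested Mage, Prame, Xlr and Tex genes (69 in the files), 21 were higher, 7 lower and 2 not called, at a median log2 fold change of 2.55, although their summed level went from 1228 ± 104 to 746 ± 57.4 CPM. Mageb16 rose from 0.0602 ± 0.104 to 20.2 ± 5.21 CPM and Tex9 from 4.44 ± 0.718 to 66.3 ± 1.23 CPM. The widely expressed Maged1 and Maged2 went the other way, from 661 ± 83.1 to 67.7 ± 8.50 and from 208 ± 31.9 to 5.20 ± 1.06 CPM.

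Genes of the cell surface were mostly changed in the other direction. Annexins bind acidic phospholipids when calcium rises. Of 10 tested (12 in the files), 0 were higher, 9 lower and 1 not called, and the median log2 fold change was -3.46. Anxa1 stood at 2398, 2157 and 1694 CPM in MEF and 5.11, 11.2 and 8.91 CPM at Stage1, Anxa2 at 940.4, 1112 and 1187 CPM in MEF and 68.7, 49.9 and 37.9 CPM at Stage1 and Anxa5 fell from 920 ± 136 to 9.75 ± 2.50 CPM. S100 proteins, small calcium binders that pair with annexins, moved in the same direction: of 9 tested (17 in the files), 0 were higher, 8 lower and 1 not called, and the median log2 fold change was -4.17. S100a11 stood at 1864, 1474 and 1105 CPM in MEF and 2.21, 1.61 and 2.19 CPM at Stage1, and its log2 fold change was -9.51 ± 0.24 (SE). S100a6 fell from 1746 ± 611 to 46.0 ± 21.8 CPM and S100a4, a marker of motile fibroblasts, from 284 ± 109 to 0.937 ± 0.419 CPM. All 4 tested galectins (9 in the files), lectins for galactose, were lower, with Lgals3 at 52.4 to 1.61 CPM and Lgals8 at 62.0 to 14.2 CPM. Lgals1 stood at 5792, 5602 and 4173 CPM in MEF and 21.8, 38.7 and 34.3 CPM at Stage1.

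Caveolae, the small flask-shaped pits of the plasma membrane, need caveolins and cavins. Of 9 tested (10 in the files), 0 were higher, 7 lower and 2 not called, and the median log2 fold change was -7.44. Cav1 stood at 539, 578 and 761 CPM in MEF and 0.967, 1.43 and 1.43 CPM at Stage1, and Ehd2, the ATPase at the neck of the pit, at 374, 335 and 507 CPM in MEF and 0.898, 0.715 and 0.757 CPM at Stage1. The log2 fold changes were -8.95 ± 0.22 and -8.97 ± 0.31, and the groups were far apart without overlap. The cavin genes Sdpr and Prkcdbp fell from 573 ± 158 to 1.22 ± 0.587 and from 187 ± 28.4 to 0.951 ± 0.264 CPM. Tetraspanins, which gather partners in membrane patches, were lower in 17 of 25 (median log2 fold change -2.42). Cd81 and Cd63 kept part of their level, at 690.2 to 80.2 and 378 to 51.3 CPM, and Tspan13 rose from 0.962 ± 0.145 to 12.8 ± 4.68 CPM. Cd53, a tetraspanin of blood cells, fell from 12.9 ± 5.31 to 0.214 ± 0.0504 CPM.

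Transcripts of proteoglycan core proteins and of the enzymes that build their sugar chains were mostly lower. Proteoglycan cores carry sulphated chains: of 33 tested (39 in the files), 5 (range 2 to 6) were higher, 23 lower and 5 not called, and the median log2 fold change was -2.87. Aspn (asporin, which binds collagen) stood at 1809, 1196 and 989 CPM in MEF and 0.691, 0.447 and 0.925 CPM at Stage1, and Cspg4 (the NG2 antigen of pericytes) fell from 154 ± 83.9 to 0.528 ± 0.265 CPM. Sdc3 fell from 253 ± 93.6 to 0.434 ± 0.361 CPM and its relative Sdc4 rose from 108 ± 16.7 to 251 ± 6.86 CPM. Of 38 tested (43 in the files) enzymes of heparan and chondroitin sulphate, 3 were higher, 32 lower and 3 not called, and the median log2 fold change was -2.23. Chsy3, a chondroitin synthase, stood at 30.5, 35.2 and 35.8 CPM in MEF and 0.207, 0 and 0.504 CPM at Stage1. Papss2, which makes the sulphate donor, fell from 57.2 ± 11.4 to 0.514 ± 0.220 CPM, and Chst12, a sulphotransferase, from 80.9 ± 8.80 to 1.58 ± 0.772 CPM. Sulf2, which trims sulphate from heparan chains, rose from 103 ± 22.6 to 204 ± 9.43 CPM while Sulf1 fell from 354 ± 63.3 to 44.1 ± 15.3 CPM.

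**Figure D3:**
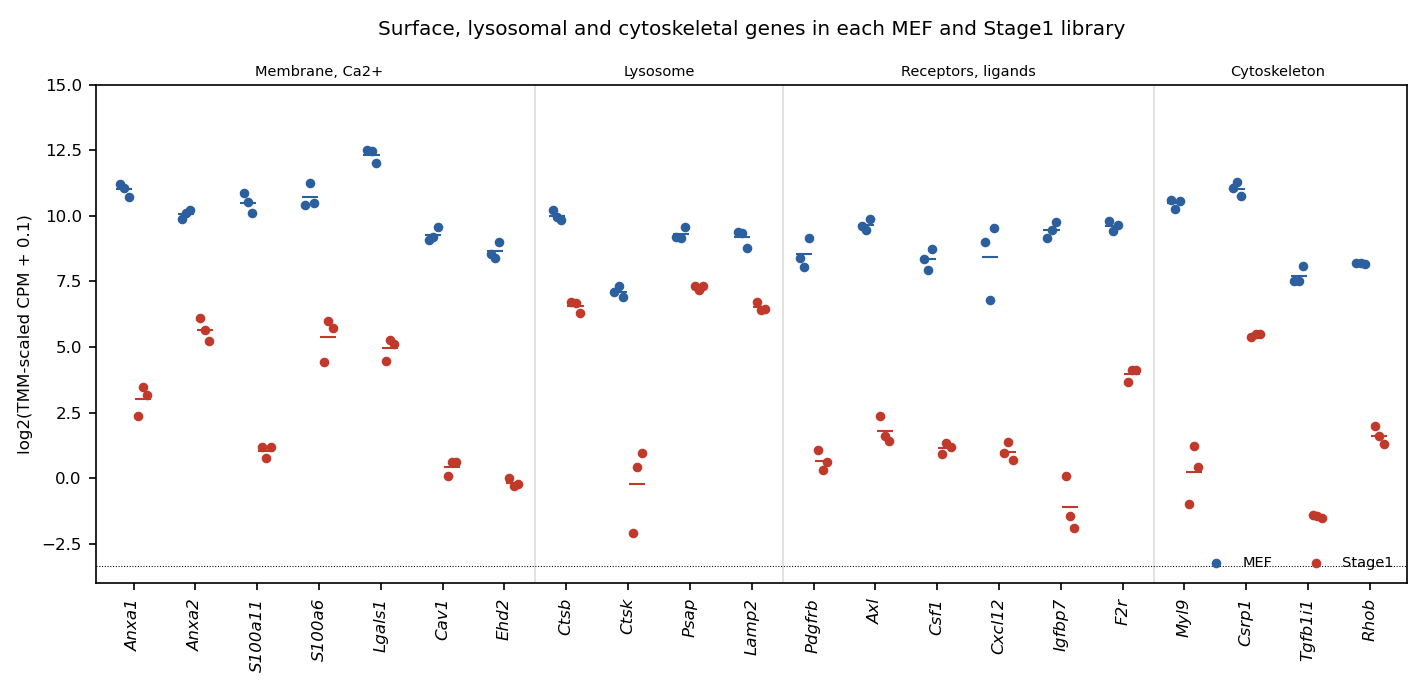
Level of 21 genes of the membrane, lysosome, signalling and cytoskeleton in each library, as log2(TMM-scaled CPM + 0.1), with a short line at each group's mean on that scale and the dotted line marking 0 CPM. For every gene shown the 3 Stage1 libraries lie below the 3 MEF libraries: the drop is small for Psap (639 to 155 CPM) and large for S100a11 (1481 to 2.00 CPM).

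Transcripts of lysosomal proteases and hydrolases were mostly lower. Of 14 cathepsins and cystatins (proteases and their inhibitors) tested (26 in the files), 0 (range 0 to 4) were higher, 14 lower and 0 not called, and the median log2 fold change was -3.28. Ctsk, the collagen-cutting cathepsin, stood at 138, 159.9 and 119 CPM in MEF and 0.138, 1.25 and 1.85 CPM at Stage1. Ctsb stood at 1188, 1002 and 905 CPM in MEF and 106, 101 and 79.2 CPM at Stage1, and Ctsd fell from 928 ± 51.0 to 107 ± 14.5 CPM. Of 39 lysosomal hydrolases tested (39 in the files), 2 were higher, 33 lower and 4 not called, and the median log2 fold change was -1.71. Arsb, a sulphatase for dermatan chains, fell from 29.1 ± 2.88 to 0.442 ± 0.233 CPM, the acid lipase gene Lipa from 104 ± 12.2 to 4.58 ± 1.35 CPM and Psap, the precursor of saposins, from 639 ± 112 to 155 ± 9.14 CPM. Manba, a mannosidase, rose from 24.2 ± 6.45 to 71.2 ± 12.4 CPM. The membrane proteins and regulators of the lysosome were divided (10 higher, 9 lower of 28, median log2 fold change 0.00; 7 higher and 9 lower on the 6 libraries alone). Lamp2 and Npc2 fell, from 589.9 to 92.8 and from 403 to 83.7 CPM, and Tfeb and Fnip2, which govern lysosomal gene control, rose from 1.88 to 9.68 and from 18.9 to 75.5 CPM. Autophagy genes were lower in 26 of 41 (median log2 fold change -0.58): Gabarap, an autophagosome tag, stood at 801, 779.8 and 713 CPM in MEF and 38.9, 40.2 and 34.0 CPM at Stage1, and Sqstm1, the cargo adaptor p62, fell from 539 ± 179 to 107 ± 13.6 CPM. Optn, Nbr1 and Pik3c3 rose, from 8.64 to 44.2, 112 to 286 and 21.9 to 79.3 CPM. Macrophages are rich in lysosomal enzymes, and markers of blood cells moved in the same direction: of 14 tested (18 in the files) 12 were lower and 0 higher. Their summed level was 202, 213 and 233 CPM in MEF and 38.7, 34.0 and 29.5 CPM at Stage1. C1qa, C1qb and C1qc stood at 16.4, 16.03 and 14.4 CPM in MEF, and at 0.0460, 0.0460 and 0.0230 CPM at Stage1. Their part in the lysosomal and immune results was not tested.

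Transcripts of coat and cargo proteins of the endoplasmic reticulum (ER) and Golgi were more often lower than higher. Of 52 coat and cargo genes tested (56 in the files), 5 were higher, 35 lower and 12 not called, and the median log2 fold change was -0.66. Copz2, a coatomer subunit, fell from 147 ± 14.2 to 0.440 ± 0.227 CPM, Sec24d, a cargo selector of COPII, from 211 ± 16.4 to 5.75 ± 0.724 CPM, and Arf4 from 1046 ± 192 to 68.7 ± 1.95 CPM. Golga4, a golgin, rose from 49.4 ± 14.9 to 307 ± 36.9 CPM. Of 53 Rab GTPases tested (58 in the files, median log2 fold change -0.92), the switches of vesicle identity, 31 were lower and 14 (range 8 to 14) higher. Rab32, of lysosome-related organelles, fell from 30.2 ± 8.05 to 0.546 ± 0.171 CPM, and the related switch Rab34 from 86.4 ± 19.8 to 5.40 ± 1.66 CPM. Rab27a rose from 1.39 ± 0.678 to 25.8 ± 0.637 CPM and Rab27b fell from 9.07 ± 0.699 to 0.507 ± 0.278 CPM. Stx3, a SNARE of apical membranes, rose from 9.78 ± 2.02 to 76.4 ± 4.64 CPM while Stx2 fell from 42.5 ± 17.2 to 1.69 ± 0.452 CPM. Subunits of the vacuolar ATPase, the proton pump of the lysosome, were mixed, with 5 (range 3 to 7) higher, 9 lower and 5 not called, and Atp6v1a was not called at 179 to 185 CPM. The stress response of the ER had 26 of 45 members (median log2 fold change -0.66) lower. Xbp1, the transcription factor that expands the ER, fell from 208 ± 30.9 to 16.8 ± 2.00 CPM, Creb3l1, an ER-bound factor of collagen-secreting cells, from 69.0 ± 9.998 to 0.198 ± 0.208 CPM and Atf5 from 231 ± 118 to 5.11 ± 0.652 CPM. Asns, the asparagine synthetase that amino acid stress induces, rose from 258 ± 58.1 to 792 ± 42.2 CPM, and the chaperone gene Hspa5 fell from 1517 to 769.8 CPM.

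Many regulators of the cytoskeleton were lower. LIM-domain proteins sit at adhesions and stress fibres: of 34 tested (35 in the files), 5 (range 3 to 5) were higher, 28 lower and 1 not called, and the median log2 fold change was -3.41. Fhl2 stood at 211, 191 and 246 CPM in MEF and 0.691, 0.268 and 0.841 CPM at Stage1, Csrp1 fell from 2115 ± 399.7 to 44.0 ± 1.73 CPM and Tgfb1i1 (Hic-5, a paxillin relative) from 212 ± 51.5 to 0.266 ± 0.0122 CPM. Among small GTPases of the cytoskeleton, Rhob stood at 296, 296 and 290.1 CPM in MEF and 3.87, 2.95 and 2.35 CPM at Stage1 and Rhoc fell from 572 ± 119 to 15.3 ± 5.19 CPM. Cdc42 stood at 943 to 356 CPM and Rhoa at 699 to 288 CPM. Among the proteins that switch such GTPases off, Arhgap19, known from mitosis, rose from 6.05 ± 0.381 to 105 ± 2.34 CPM, Arhgap24 fell from 38.3 ± 6.17 to 0.236 ± 0.0508 CPM and Arhgap5 was not called at 248 to 267 CPM. Septins, the filaments of barriers and rings, fell in 8 of 11 (median log2 fold change -1.04), with Sept5 going from 109 ± 29.8 to 0.239 ± 0.168 CPM.

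Myosins, the actin motors, diverged by isoform. Of 45 tested (54 in the files), 27 (range 16 to 31) were higher, 13 lower and 5 not called, and the median log2 fold change was 1.14. The direction turned among the 23 with at least 5 CPM in a group, of which 10 were higher and 12 lower at a median of -0.41, and on the 6 libraries alone 16 of all tested were higher. Myl9, the regulatory light chain of smooth muscle and fibroblasts (chromosome 2, 156775420 to 156781658), stood at 1534, 1241 and 1500.3 CPM in MEF and 0.414, 2.23 and 1.26 CPM at Stage1. Mylpf, the light chain of fast skeletal muscle (chromosome 7, 127208890 to 127214298), stood at 0.125, 0 and 0.662 CPM in MEF and 168, 231 and 224 CPM at Stage1. The directions were opposite, with log2 fold changes of -10.15 ± 0.37 and 9.39 ± 0.41. Myh7b, a slow muscle heavy chain, had no count in MEF and 28.5, 17.9 and 15.05 CPM at Stage1, at least 278-fold higher. Myh9, the non-muscle heavy chain, fell from 1739 ± 491 to 447 ± 22.3 CPM, Mylk, the kinase of the light chain, from 186 ± 39.5 to 1.83 ± 1.06 CPM, and Myo1c from 425 ± 113 to 26.8 ± 2.85 CPM. Myo10, the motor of filopodia, rose from 52.1 ± 12.8 to 206 ± 37.4 CPM. Of 10 skeletal muscle markers tested (23 in the files, median log2 fold change 2.52), 5 (range 4 to 8) were higher and 3 lower. Of the 5 with at least 5 CPM 2 were higher and 3 lower, and their median was -4.41. Skeletal actin Acta1 went from 155 to 0.142 CPM, and desmin (Des) from 122 to 5.72 CPM.

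Serum response factor binds CArG boxes of contractile genes. In the 250 bases before the starts in RefSeq, a CArG box was found in 1.62% of genes with a promoter in the table and in 1.44% of those tested. It was found in 4 of 26 LIM genes (15.4%), of which 3 were lower and 1 higher, and in 5 of 39 myosin genes (12.8%), of which 2 were lower and 3 were not called. The window of Myl9, whose transcript had the largest fall among those members, is shown up to the start of the GENCODE gene (plus strand, chr2:156775214-156775419, GRCm38.p6, RefSeq), with the CArG box in capitals.
Myl9: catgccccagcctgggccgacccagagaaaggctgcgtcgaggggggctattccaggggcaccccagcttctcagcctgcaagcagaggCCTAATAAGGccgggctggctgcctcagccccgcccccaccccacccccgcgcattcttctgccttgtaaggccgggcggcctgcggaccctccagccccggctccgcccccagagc

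Cilium genes were more often higher: of 51 tested (52 in the files), 28 were higher, 11 lower and 12 not called, and the median log2 fold change was 0.52. Cep290, of the transition zone, rose from 9.51 ± 3.37 to 105 ± 7.93 CPM and Wdr35, of retrograde transport, from 24.2 ± 3.86 to 183 ± 31.1 CPM, while Ift27 fell from 20.5 ± 2.47 to 3.68 ± 1.17 CPM.

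Genes of receptors that read the environment changed in both directions. Receptor tyrosine kinases bind growth factors at the surface. Of 34 tested (41 in the files), 11 (range 6 to 18) were higher, 21 lower and 2 not called, and the median log2 fold change was -1.56. Kit, the stem cell factor receptor (chromosome 5, 75574916 to 75656722), stood at 0.125, 0 and 0 CPM in MEF and 60.7, 71.7 and 80.5 CPM at Stage1, a ratio of 2779 (95% counting interval 498 to 109808). Erbb3, a kinase-impaired partner of Erbb2, stood at 0.125, 0 and 0 CPM in MEF and 19.2, 14.8 and 16.7 CPM at Stage1. Both rested on 1 MEF count, and all 3 Stage1 libraries were far above it. Pdgfrb, the PDGF receptor of mesenchyme, stood at 339, 263 and 569 CPM in MEF and 2.00, 1.16 and 1.43 CPM at Stage1, and Axl, the receptor of Gas6, at 772, 696 and 939 CPM in MEF and 5.04, 2.95 and 2.61 CPM at Stage1. Egfr and Ddr2, a collagen receptor, fell from 149.6 ± 33.0 to 3.55 ± 0.499 and from 334 ± 87.4 to 6.59 ± 1.90 CPM. In edgeR's test the adjusted p was 2.65e-14 for Kit, 1.09e-11 for Erbb3, 5.98e-13 for Pdgfrb and 1.31e-14 for Axl.

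Ligand genes were more often lower than higher as well. Of 24 ligands of the PDGF, VEGF, HGF and related groups tested (27 in the files), 5 (range 3 to 5) were higher, 15 lower and 4 not called, and the median log2 fold change was -2.75. Csf1, the macrophage growth factor, stood at 326, 247 and 422 CPM in MEF and 1.80, 2.41 and 2.19 CPM at Stage1, Pdgfc fell from 119 ± 44.6 to 0.383 ± 0.136 CPM, Hgf from 17.3 ± 7.50 to 0.242 ± 0.308 CPM and Vegfa from 226 ± 20.6 to 33.0 ± 13.1 CPM. Of 19 genes of the insulin-like growth factor system tested (21 in the files), 1 (range 0 to 3) was higher, 16 lower and 2 not called, and the median log2 fold change was -2.97. Igfbp7 stood at 570.1, 694 and 863 CPM in MEF and 0.967, 0.268 and 0.168 CPM at Stage1, Igfbp5 fell from 685 ± 193 to 1.03 ± 0.355 CPM, and Pappa, the protease that frees IGF from its binders, from 676 ± 168 to 1.81 ± 0.0519 CPM.

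Several groups of G protein signalling genes were lower more often than higher, for the orphan receptors not under every setting. Of 54 orphan and adhesion receptors tested (128 in the files), 16 (range 12 to 45) were higher, 32 lower and 6 not called, and the median log2 fold change was -1.87. With no filter on low counts 45 were higher and 34 lower, and with DESeq2 38 and 34, so the balance turned, whereas of the 29 with at least 5 CPM 5 were higher and 22 lower. Gpr176 fell from 155 ± 42.1 to 0.442 ± 0.233 CPM and Gpr124, an adhesion receptor of vessels and mesenchyme, from 124 ± 57.9 to 1.16 ± 0.507 CPM. Lgr4, an R-spondin receptor, rose from 37.3 ± 6.44 to 112 ± 17.7 CPM and Celsr1, a planar polarity cadherin, from 0.0602 ± 0.104 to 9.29 ± 2.11 CPM. Of 31 receptors for lysophospholipids, purines, thrombin and similar ligands tested (50 in the files), 8 (range 4 to 13) were higher, 20 lower and 3 not called, and the median log2 fold change was -2.26. F2r, the thrombin receptor, stood at 892, 688 and 809 CPM in MEF and 12.6, 17.3 and 17.2 CPM at Stage1, while its relative F2rl1, the receptor for trypsin-like proteases, rose from 29.01 ± 8.03 to 86.2 ± 15.7 CPM. S1pr3 fell from 107 ± 15.6 to 0.934 ± 0.369 CPM. Of 33 cyclic nucleotide enzymes tested (44 in the files), 5 (range 2 to 10) were higher, 24 lower and 4 not called, and the median log2 fold change was -2.66: Adcy7 fell from 83.1 ± 9.11 to 0.910 ± 0.383 CPM and Pde9a, specific for cyclic GMP, rose from 0.472 ± 0.467 to 27.1 ± 1.93 CPM. RGS proteins, which shorten the signal, were lower in 10 of 18 (median log2 fold change -1.87) and higher in 3, with Rgs16 at 70.8 to 2.04 CPM. Among the G protein subunits, Gnas fell from 1484 ± 425 to 136 ± 26.1 CPM and Gng10 from 192 ± 93.1 to 7.73 ± 0.196 CPM.

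Tyrosine phosphatases, Notch and Hedgehog genes were mixed. Ptpn6 (Shp1, known from blood cells) rose from 1.80 ± 1.63 to 40.2 ± 6.75 CPM and Ptprz1 fell from 88.5 ± 31.4 to 0.782 ± 0.202 CPM. In the Notch pathway 20 of 30 (median log2 fold change -1.36) were lower, including the target genes Heyl (28.4 to 0.207 CPM) and Hey1 (15.3 to 0.896 CPM) and the ligand gene Jag1 (160.2 to 55.2 CPM). In the Hedgehog pathway Smo, the signal transducer, fell from 92.0 ± 7.88 to 4.89 ± 1.28 CPM, whereas Ptch1, receptor and target, rose from 4.43 ± 0.661 to 17.0 ± 4.45 CPM.

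Genes of immune communication were mostly lower. Of 24 chemokines and receptors tested (53 in the files), 1 (range 0 to 6) was higher, 18 lower and 5 not called, and the median log2 fold change was -3.47. Cxcl12, which guides blood progenitors, stood at 510.1, 109 and 744 CPM in MEF and 1.86, 2.50 and 1.51 CPM at Stage1, with MEF replicate 2 below the other MEF libraries. Ccl2 and Ccl7, attractants of monocytes, fell from 21.3 ± 2.82 to 0.418 ± 0.209 and from 50.5 ± 9.69 to 0.332 ± 0.178 CPM. Of 44 interleukins and receptors tested (92 in the files), 10 (range 7 to 25) were higher, 27 lower and 7 not called, and the median log2 fold change was -2.22. Il1rl1, the receptor of IL-33, fell from 120 ± 48.7 to 0.678 ± 0.188 CPM, Osmr from 108 ± 16.7 to 1.68 ± 0.707 CPM and Il4ra from 131 ± 24.3 to 1.42 ± 0.157 CPM. Of 29 TNF ligands and receptors tested (44 in the files), 5 (range 3 to 9) were higher, 19 lower and 5 not called, and the median log2 fold change was -2.57. Tnfrsf11b (osteoprotegerin, the decoy receptor of RANKL) stood at 166, 157 and 174 CPM in MEF and 0.0691, 0.268 and 0.504 CPM at Stage1, and Tnfrsf1a, the main TNF receptor, fell from 64.7 ± 20.5 to 1.09 ± 0.300 CPM. Tnfrsf19 and Ngfr rose, from 0.417 ± 0.401 to 9.85 ± 5.90 and from 1.17 ± 0.337 to 14.0 ± 5.17 CPM.

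Sensors of microbes and foreign nucleic acid included members of both directions (6 higher, 16 lower, 9 not called of 31, median log2 fold change -1.15). Aim2, the sensor of DNA in the cytosol, stood at 0.626, 0.935 and 0.181 CPM in MEF and 86.9, 98.1 and 96.8 CPM at Stage1, and its log2 fold change was 7.37 ± 0.28 (SE). Ddx58 (RIG-I, a sensor of viral RNA) rose from 25.5 ± 2.38 to 92.7 ± 12.2 CPM and the kinase gene Tbk1 from 22.5 ± 1.78 to 85.7 ± 5.81 CPM. Tlr4, the receptor of bacterial lipopolysaccharide, fell from 30.9 ± 4.35 to 0.267 ± 0.0950 CPM and Tmem173 (Sting) from 56.3 ± 9.60 to 1.59 ± 0.316 CPM. In the NF-kappaB pathway Rela and Nfkb2 fell, from 51.1 to 9.65 and from 38.8 to 8.14 CPM, and Birc2 rose from 24.9 ± 4.45 to 76.9 ± 2.198 CPM. Adjusted p-values (edgeR) were 1.22e-13 for Aim2, 9.58e-10 for Tlr4 and 3.25e-06 for Cxcl12.

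Channel and carrier genes changed in both directions. Connexins form gap junctions: Gja1 (connexin 43) stood at 142, 211 and 89.9 CPM in MEF and 566, 411 and 446 CPM at Stage1, whereas Gjb2 fell from 44.6 ± 12.8 to 0.180 ± 0.0961 CPM. Of 49 potassium channels tested (92 in the files), 17 (range 6 to 34) were higher, 15 lower and 17 not called. The median log2 fold change was -0.08, and 6 were higher when fitted on the 6 libraries alone. Of the 5 with at least 5 CPM in a group 1 was higher and 4 were lower, at a median of -4.73. The smooth muscle subunit gene Kcnmb1 stood at 51.6 to 0.0741 CPM and the acid-sensitive Kcnk5 at 0.423 to 11.2 CPM. The mechanically gated channel genes Piezo1 and Piezo2 fell, from 219.7 ± 82.2 to 41.6 ± 5.07 and from 87.0 ± 32.4 to 1.67 ± 0.348 CPM. The calcium channel gene Cacna1c fell from 33.8 ± 13.6 to 0.894 ± 0.124 CPM, and Cacnb1, of a regulatory subunit, rose from 0.426 ± 0.381 to 12.1 ± 1.07 CPM. Aqp3, a channel for water and glycerol, rose from 0.356 ± 0.617 to 17.7 ± 2.52 CPM and Aqp1 fell from 8.40 ± 3.95 to 0.229 ± 0.130 CPM. Of 42 ABC transporters tested (50 in the files), 22 (range 12 to 26) were higher, 10 lower and 10 not called, and the median log2 fold change was 0.86. Of the 23 with at least 5 CPM 10 were higher and 8 lower at a median of 0.08, and on the 6 libraries alone 12 of all tested were higher. Abcc4, an exporter of cyclic nucleotides and drugs, rose from 4.604 ± 1.29 to 124 ± 3.29 CPM, Abcb1b, a multidrug exporter, from 7.75 ± 4.99 to 62.5 ± 5.12 CPM, and Abce1, a ribosome recycling factor, from 327 ± 38.6 to 984 ± 102 CPM. Abcg2 fell from 134 ± 24.1 to 20.4 ± 1.57 CPM.

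Monocarboxylate carriers move lactate and pyruvate with protons. Slc16a1 (Mct1, in many cells an importer) stood at 13.8, 25.3 and 26.6 CPM in MEF and 357, 346 and 335 CPM at Stage1, and Slc16a3 (Mct4, the lactate exporter of glycolytic cells) at 310.3, 354 and 375 CPM in MEF and 75.5, 20.5 and 18.0 CPM at Stage1. Stage1 replicate 1 kept more Slc16a3 than the other Stage1 libraries but lay below all MEF libraries. Slc35f2, a carrier of the sugar carrier family, stood at 0.125, 0.134 and 0 CPM in MEF and 98.7, 67.8 and 58.8 CPM at Stage1, a ratio of 1014 (95% counting interval 347 to 4921). In the mitochondrial membrane, the carrier genes Slc25a13 (aspartate and glutamate) and Slc25a15 (ornithine) rose, from 17.4 ± 2.82 to 228 ± 12.3 and from 8.87 ± 1.27 to 59.3 ± 4.22 CPM, and Slc25a24 fell from 169.7 ± 32.8 to 8.87 ± 2.09 CPM.

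Zinc and metallothionein genes moved in both directions, 9 higher and 9 lower of 21 tested (median log2 fold change -0.18). Metallothioneins bind zinc and copper, and their genes respond to free zinc through Mtf1. Mt2 (chromosome 8, 94172664 to 94173568) stood at 2.00, 8.88 and 4.16 CPM in MEF and 433, 368 and 376 CPM at Stage1, and Mt1 at 16.6, 22.4 and 24.5 CPM in MEF and 273, 234 and 215 CPM at Stage1. Slc30a1, the zinc exporter of the plasma membrane, rose from 9.19 ± 2.90 to 77.2 ± 20.9 CPM. The importer gene Slc39a8 rose from 6.44 ± 1.73 to 47.7 ± 13.7 CPM, and Slc39a13 and Slc39a6, of the secretory route and surface, fell from 63.2 ± 15.6 to 1.957 ± 0.331 and from 149.6 ± 39.8 to 14.0 ± 1.62 CPM. The metal response element, searched as TGCACNC and TGCGCNC on both strands, is short and common: it was found in 23.8% of genes with a promoter in the table, in 34.1% of those tested and in 10 of 18 genes of this list (55.6%). Of these 10, 6 were higher, 3 lower and 1 not called. The 250 bases before an Mt2 start listed in RefSeq (plus strand, chr8:94172368-94172617, GRCm38.p6) held 3 such elements, in capitals. That start lies upstream of the GENCODE start given above, so the window does not reach the latter. GENCODE places the antisense gene Gm45774 across this region, and without strand its reads and those of Mt2 cannot be told apart.
Mt2: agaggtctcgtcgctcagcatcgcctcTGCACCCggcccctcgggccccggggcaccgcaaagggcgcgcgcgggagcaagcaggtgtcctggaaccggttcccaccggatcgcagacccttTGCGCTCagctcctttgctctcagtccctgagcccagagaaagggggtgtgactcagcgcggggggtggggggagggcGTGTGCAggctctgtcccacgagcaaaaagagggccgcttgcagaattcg

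Metabolic genes changed by route. Nucleotide synthesis supplies DNA and RNA building blocks: of 43 tested (45 in the files), 27 were higher, 8 lower and 8 not called, and the median log2 fold change was 1.13. Ppat, the first committed enzyme of purine synthesis, rose from 28.0 ± 6.87 to 393 ± 40.2 CPM, Umps of pyrimidine synthesis from 32.9 ± 5.93 to 203 ± 11.6 CPM and Rrm2 of ribonucleotide reductase from 49.9 ± 6.63 to 337 ± 16.3 CPM. Uridine phosphorylase Upp1 stood at 0.250, 0.668 and 0.723 CPM in MEF and 60.4, 46.1 and 43.5 CPM at Stage1. The salvage genes Aprt and Ada fell, from 119 ± 18.8 to 34.6 ± 3.25 and from 14.0 ± 3.28 to 2.76 ± 1.32 CPM. Odc1, the first enzyme of polyamine synthesis, stood at 279, 272 and 304 CPM in MEF and 1273, 1676 and 1616 CPM at Stage1, and Sms, the spermine synthase, rose from 40.6 ± 14.7 to 352 ± 70.4 CPM. Gatm and Gamt, the enzymes of creatine synthesis, fell from 10.1 ± 1.90 to 1.15 ± 0.205 and from 10.1 ± 1.03 to 0.384 ± 0.192 CPM.

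The glycine cleavage system splits glycine into carbon dioxide, ammonia and a carbon unit for folate. Gldc, its decarboxylase, stood at 0.125, 0 and 0 CPM in MEF and 119, 85.9 and 86.2 CPM at Stage1, a ratio of 3913 (95% counting interval 702 to 154580), and Amt, its aminomethyltransferase, at 0.250, 0.668 and 0.361 CPM in MEF and 94.3, 82.2 and 74.8 CPM at Stage1. Both were near 0 in MEF and without overlap. Bckdhb, of the branched-chain ketoacid dehydrogenase, rose from 2.68 ± 1.04 to 73.6 ± 7.33 CPM, and in the list of branched-chain, lysine and glycine degradation 19 of 32 (median log2 fold change 0.79) were higher and 8 lower. Prodh, the first step of proline breakdown, stood at 0.751, 0.868 and 0.0602 CPM in MEF and 41.4, 44.5 and 46.0 CPM at Stage1, while Pycr1, the last step of proline synthesis, fell from 17.6 ± 1.80 to 3.83 ± 0.119 CPM. The glutaminase gene Gls2 rose from 0.922 ± 0.503 to 9.78 ± 0.851 CPM. In the citric acid cycle and pyruvate entry list 20 of 39 (median log2 fold change 0.48) were higher and 13 lower: Pdha1 rose from 230 ± 45.7 to 955 ± 45.9 CPM, Suclg2 from 45.5 ± 8.76 to 201 ± 9.08 CPM and Ogdhl from 9.42 ± 3.98 to 87.5 ± 17.9 CPM, whereas Pdk2, a kinase that brakes pyruvate dehydrogenase, fell from 9.49 ± 2.65 to 0.512 ± 0.191 CPM. In the pentose phosphate pathway Rpia rose from 1.80 ± 0.255 to 12.9 ± 1.33 CPM and Pgls fell from 59.0 ± 15.3 to 4.56 ± 0.776 CPM. Cox6b1 and Cox6b2, alternative subunits of cytochrome oxidase, went from 444 to 146 and from 4.43 to 24.04 CPM, and Ldha and Ldhb, of lactate dehydrogenase, from 1551 to 697 and from 8.14 to 27.7 CPM.

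Genes of redox defence changed in both directions. Of 57 glutathione and thioredoxin genes tested (64 in the files), 15 were higher, 32 lower and 10 not called, and the median log2 fold change was -0.73. Gsta4, which detoxifies lipid aldehydes, stood at 1.38, 5.88 and 8.85 CPM in MEF and 474, 373 and 318 CPM at Stage1. Sod2 and Sod1, the superoxide dismutases of mitochondria and cytosol, rose from 28.9 ± 6.91 to 215 ± 4.32 and from 72.6 ± 10.4 to 303 ± 17.6 CPM, and glutathione reductase (Gsr) from 27.0 ± 4.14 to 190 ± 14.8 CPM. Gpx3, the secreted peroxidase, stood at 94.2, 25.8 and 141 CPM in MEF and 0.967, 1.25 and 0.420 CPM at Stage1, and the peroxidases of the ER, Gpx7 and Gpx8, fell from 49.3 ± 11.5 to 1.47 ± 0.113 and from 186 ± 57.2 to 1.84 ± 0.364 CPM. Retinal and aldehyde dehydrogenases included Aldh1a3, which fell from 35.0 ± 14.3 to 0.148 ± 0.139 CPM, and Aldh3a1, which stood at 0.250, 2.27 and 1.63 CPM in MEF and 5.52, 33.7 and 8.83 CPM at Stage1. Stage1 replicate 2 was far above the other Stage1 libraries, and without it the log2 fold change of Aldh3a1 was 2.29 in place of 3.41.

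Iron genes went in both directions. Tfrc, the transferrin receptor that brings iron in, stood at 75.0, 68.3 and 45.05 CPM in MEF and 799.7, 719 and 711 CPM at Stage1. Ftl1, the ferritin light chain that stores it, stood at 2256, 2802 and 3544 CPM in MEF and 573, 393 and 331 CPM at Stage1. The groups did not overlap in either gene, and the log2 fold changes were 3.57 ± 0.18 and -2.73 ± 0.20. Ireb2, the iron-sensing RNA-binding protein, rose from 44.8 ± 5.80 to 113 ± 16.1 CPM, and ferrochelatase (Fech) fell from 86.7 ± 12.02 to 18.3 ± 2.15 CPM. Ferritin genes have many processed copies, which can share reads.

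Lipid enzymes changed by branch. Ptgs2, the inducible cyclooxygenase, stood at 986, 795 and 625 CPM in MEF and 0.898, 1.25 and 1.26 CPM at Stage1, with Pla2g4a, which frees its substrate, falling from 174 ± 33.8 to 10.5 ± 2.55 CPM and Ptgis, the prostacyclin synthase, from 47.5 ± 14.3 to 3.39 ± 0.415 CPM. Of 28 sphingolipid enzymes tested (33 in the files), 4 (range 3 to 7) were higher, 19 lower and 5 not called, and the median log2 fold change was -0.83. Sphk1, which makes sphingosine phosphate, fell from 25.1 ± 2.68 to 0.406 ± 0.113 CPM, Asah1, the acid ceramidase, from 559 ± 140.2 to 149 ± 19.6 CPM, and Smpd4 rose from 18.0 ± 5.31 to 108 ± 2.88 CPM. Elovl6, which lengthens palmitate, rose from 35.3 ± 5.81 to 323 ± 37.7 CPM and Elovl1, for very long chains, fell from 145 ± 31.1 to 8.87 ± 2.86 CPM. Fads3, a desaturase relative, fell from 321 ± 105 to 0.661 ± 0.210 CPM. Acadm, the medium-chain dehydrogenase of fatty acid burning, rose from 38.4 ± 0.225 to 163 ± 19.7 CPM, whereas Acadvl, for very long chains, fell from 70.8 ± 13.7 to 15.4 ± 0.238 CPM and Hadha was not called at 110 to 115 CPM. Among glycosyltransferases Fut9, the fucosyltransferase that makes the Lewis X (SSEA-1) epitope of mouse pluripotent cells, stood at 0, 0.200 and 0 CPM in MEF and 242, 86.1 and 95.1 CPM at Stage1. B4galnt4 rose from 0.189 ± 0.0587 to 34.6 ± 1.28 CPM, and the sialyltransferase genes St3gal1 and St3gal2 fell, from 26.6 ± 7.39 to 0.790 ± 0.320 and from 80.1 ± 11.8 to 3.44 ± 0.270 CPM.

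Ubiquitin enzymes were more often higher among the deubiquitinases. Of 53 ubiquitin-specific proteases tested (56 in the files), 35 were higher, 11 lower and 7 not called, and the median log2 fold change was 0.85. The number lower was 7 when scaled by library totals, 7 without MEF replicate 3 and 6 without Stage1 replicate 3. Usp7, which stabilises Mdm2 and p53, rose from 84.0 ± 15.4 to 893 ± 27.0 CPM, Usp48 from 41.2 ± 8.40 to 495 ± 9.98 CPM and Usp1, of the Fanconi pathway, from 50.9 ± 5.03 to 294 ± 31.4 CPM. Usp44, without a count in MEF, stood at 21.3, 13.2 and 20.01 CPM, at least 244-fold higher. Trim and F-box proteins were mixed, with 24 and 19 higher and 16 and 24 lower of 50 and 62. Trim37 rose from 21.5 ± 6.77 to 244 ± 9.42 CPM, Fbxo5 (Emi1, the inhibitor of the anaphase-promoting complex) from 9.51 ± 1.87 to 150.4 ± 14.0 CPM, and Fbxo32 (atrogin-1, known from muscle wasting) fell from 181 ± 18.0 to 1.65 ± 0.444 CPM.

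Exchanges of this kind, with a gene of a family or function falling while another rose, are gathered in the plot of opposite changes. The pairs were put together after their values were seen.

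**Figure D4:**
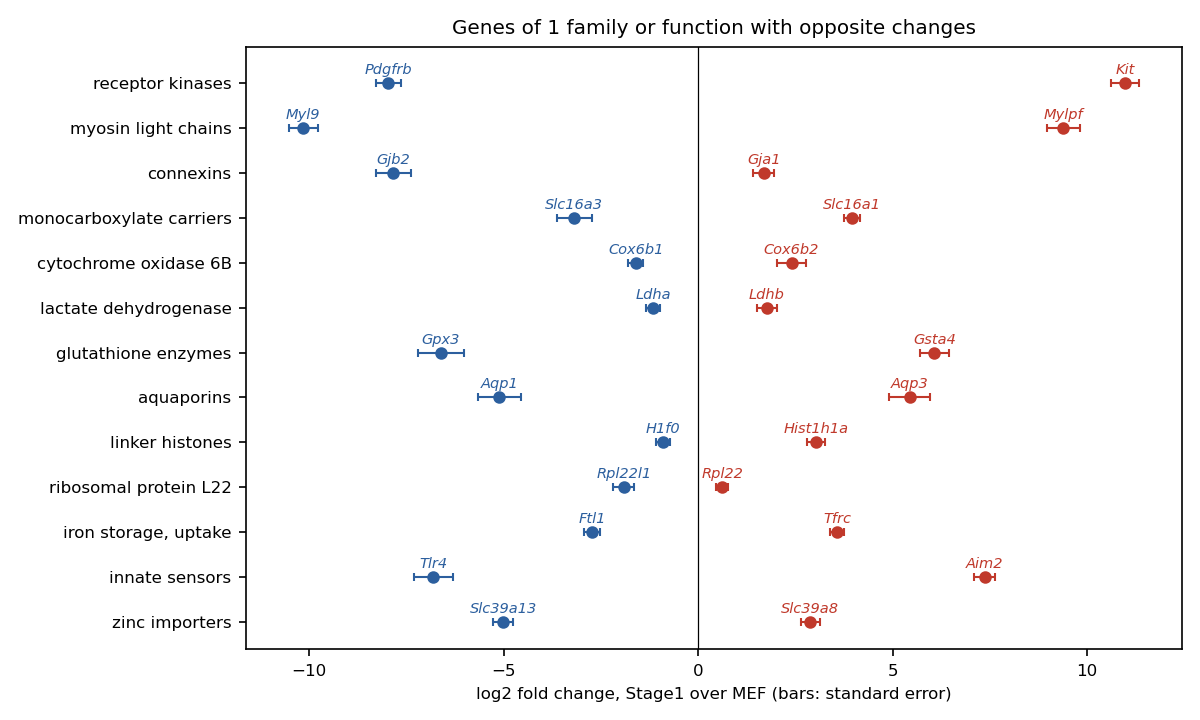
Log2 fold change of Stage1 over MEF for 13 pairs of genes from the same family or function, with the standard error as bars; lower genes are blue and higher genes red. The widest pair is Myl9 and Mylpf (-10.15 ± 0.37 and 9.39 ± 0.41) and the narrowest is Rpl22l1 and Rpl22 (-1.91 ± 0.27 and 0.62 ± 0.16).

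Among the leading rises with at least 20 CPM, Bex4, an X-linked brain-expressed gene, stood at 0, 0 and 0.0602 CPM in MEF and 145, 155 and 155 CPM at Stage1, a ratio of 5993 (95% counting interval 1075 to 236759). Trh, which encodes thyrotropin-releasing hormone, stood at 0.125, 0.401 and 0 CPM in MEF and 491, 545 and 526 CPM at Stage1. Nefl, the light neurofilament and a member of the list of neuron markers, stood at 0.125, 0 and 0 CPM in MEF and 119, 104 and 103 CPM at Stage1. Each rested on 7 MEF counts or fewer. Eras, the constitutively active Ras of mouse embryonic stem cells, had no count in MEF and 28.0, 25.1 and 26.4 CPM at Stage1, and Ap1m2, an adaptor subunit of polarised epithelia, had none and 35.4, 30.9 and 29.2 CPM. They were at least 352-fold and at least 423-fold higher. The leading falls included secreted proteins: Wisp1, a matricellular ligand, went from 958 ± 219.9 to 0.473 ± 0.0699 CPM, Tnmd, the tenomodulin of tendon, from 122.7 ± 21.5 to 0.0460 ± 0.0797 CPM, and C1qtnf3, an adipokine-like factor, from 273 ± 138 to 0.236 ± 0.0508 CPM. Cnn1, the calponin of smooth muscle, fell from 747 ± 118 to 0.451 ± 0.384 CPM.

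Several of these genes differed again between Stage1 and Stage2 in the same fit, which shares its Stage1 libraries with the comparison above. Of the 15 leading rises 8 were lower in Stage2 than in Stage1 libraries, 2 went further up and 5 were not called, beside 19.8% of all genes lower and 20.6% higher. Of the 15 leading falls 11 were higher at Stage2, 0 were lower and 4 were not called. Both sets were picked for extreme Stage1 values, which by itself favours a move back at Stage2. The falls named above were near 0 CPM at Stage1 and had little room to be called lower. Trh stood at 521 CPM at Stage1, 144 at Stage2 and 129.9 CPM in the established cells, and Mylpf at 208, 37.9 and 58.8 CPM. Rhox6 stood at 31.8, 2.86 and 2.55 CPM, and Mt2 at 392.4, 116 and 86.8 CPM. Gja1 stood at 474, 91.8 and 72.4 CPM, beside 148 CPM in MEF. Upp1 continued upward, with 50.0, 296 and 296 CPM. Aim2, Gldc and Tfrc were not called between Stage1 and Stage2, at 94.0 and 93.0, 97.1 and 96.0, and 743 and 737 CPM. For the Stage2 against Stage1 difference the adjusted p in edgeR's test was 1.62e-06 for Trh, 1.36e-06 for Mylpf, 5.88e-06 for Rhox6, 5.67e-05 for Mt2, 6.92e-06 for Gja1 and 3.08e-09 for Upp1. These genes were picked for this description after their values were seen.

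Markers of other cell types were checked on short lists. Of 15 neuron and glia markers tested (20 in the files, median log2 fold change 3.54), 11 were higher at Stage1, among them Nefl, Nefm (0.0201 to 33.2 CPM) and Stmn2 (37.9 to 93.6 CPM), while Tubb3 fell from 25.3 ± 19.4 to 5.17 ± 1.56 CPM. Of 13 endothelial markers tested (18 in the files, median log2 fold change 2.35), 9 (range 4 to 10) were higher and 2 lower, and 4 were higher on the 6 libraries alone. Of the 6 with at least 5 CPM in a group 3 were higher and 2 lower. The summed level of the 18 went from 94.4 ± 23.7 CPM in MEF to 72.8 ± 7.24 CPM at Stage1. Pecam1 stood at 0, 0.200 and 0.361 CPM in MEF and 30.5, 47.6 and 44.8 CPM at Stage1, and Emcn and Flt1 fell from 10.05 ± 5.95 to 0.137 ± 0.1004 and from 74.2 ± 24.03 to 1.29 ± 0.202 CPM. In the list of cartilage and bone 1 was higher and 4 were lower of 9 (median log2 fold change -0.90). The higher one was Alpl, the alkaline phosphatase also used to stain pluripotent colonies, at 0.125, 0.401 and 0.783 CPM in MEF and 170.1, 106 and 107 CPM at Stage1, and Runx2 fell from 15.99 ± 5.14 to 0.426 ± 0.373 CPM. Of 4 adipocyte markers tested (12 in the files, median log2 fold change -1.69), 3 were lower. Primitive endoderm markers had 3 (range 1 to 7) higher and 5 lower of 10 tested (median log2 fold change -1.93): Lama1 rose from 12.96 ± 6.99 to 169.5 ± 5.58 CPM, and Gata6 fell from 9.07 ± 2.96 to 0.777 ± 0.387 CPM. Of 8 trophectoderm markers tested (14 in the files, median log2 fold change 2.35), 5 (range 2 to 7) were higher and 3 lower, with 3 higher without Stage1 replicate 3. Their summed level was 16.4, 18.3 and 15.3 CPM in MEF and 143, 172 and 170.2 CPM at Stage1. Tfap2c, Krt8 and Krt18 went from 0 to 119, 0.374 to 28.4 and 6.93 to 10.2 CPM. The call of Krt18 was lost on the 6 libraries alone and under some other settings. The part of these cell types in the family results was not tested.

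Many calls at low levels went 1 way. Among genes with a mean below 1 CPM in both groups, 1358 were tested and 782 were higher at Stage1 against 21 lower. In the 11209 genes with at least 5 CPM in a group, 4757 were higher and 4699 lower. Of the tested genes 971 had no count in any MEF library, 91 of them with at least 5 CPM at Stage1, and 13 had no count in any Stage1 library, 3 of them with at least 5 CPM in MEF. Olfactory and vomeronasal receptor genes, which serve smell and are silent in most tissues, were added as a list after these values were seen. Of 1447 such genes 12, 22 and 20 had a count in the MEF libraries and 769, 436 and 728 at Stage1. Their summed level was 8.88, 11.4 and 9.998 CPM in MEF and 194, 115 and 190.1 CPM at Stage1. The median receptor gene stood at 0.0510 CPM at Stage1, and 99 in 100 stood at or below 0.364 CPM. The receptor counts moved with the share of reads in no counted feature, and its part in rises below 1 CPM was not tested. Only 2 receptor genes reached 5 CPM at Stage1: Vmn1r58 at 0.250, 0.134 and 0.120 CPM in MEF and 28.7, 22.5 and 36.3 CPM at Stage1, and Olfr613 at 2.25, 4.07 and 3.49 CPM in MEF and 44.5, 22.97 and 36.2 CPM at Stage1.

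**Figure D5:**
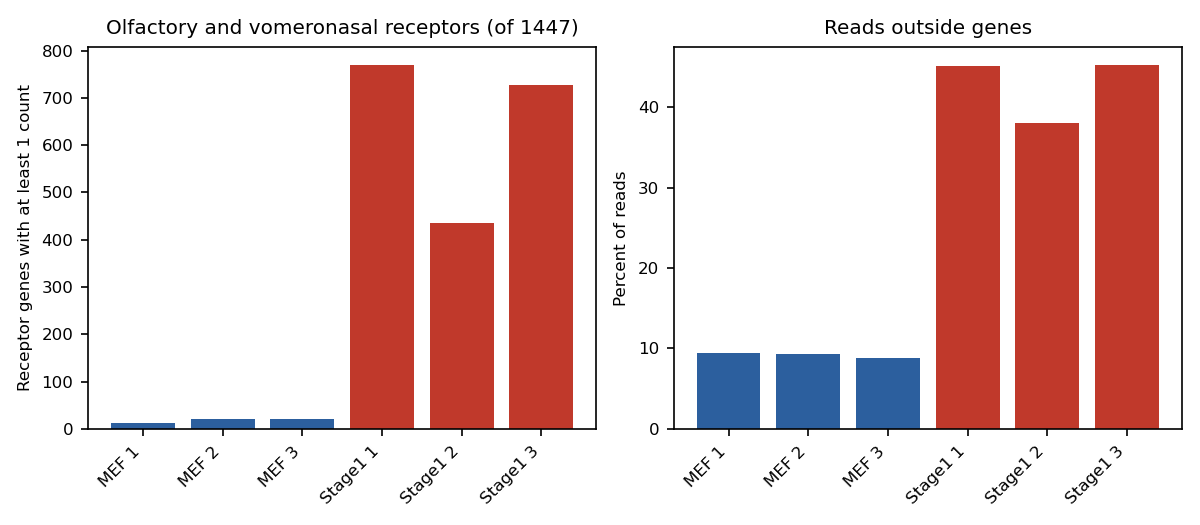
Left, number of the 1447 olfactory and vomeronasal receptor genes with at least 1 count in each library. Right, percent of reads in no counted feature in the same libraries, titled reads outside genes in the plot. Both are low in the 3 MEF libraries (12 to 22 genes, 8.86% to 9.42%) and high in the 3 Stage1 libraries (436 to 769 genes, 38.1% to 45.2%).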

How the data were processed

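Total RNA (miRNeasy Mini kit, Illumina libraries, per the labels) was measured in 12 libraries, and the deposited tables hold raw read counts per gene. The submitters' processing notes name TopHat2 2.0.9, Bowtie2 2.2.6, SAMtools 0.1.19, HTSeq 0.5.4p3, DESeq2 1.12.4 and mm10. The sources used here give neither strand nor annotation, and overlapping and antisense genes cannot be told apart. Close copies may share reads. The 5 summary rows of HTSeq were left out of library sizes and tests. Reads in no counted feature (in those rows) were 8.86% to 45.2% of reads in the 6 libraries compared.

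Counts of 23420 genes were filtered by group with edgeR 4.0.16 (R 4.3.3), leaving 14770, scaled by TMM and fitted over all 12 libraries with robust quasi-likelihood. Stage1 was contrasted with MEF, and p-values were adjusted by Benjamini and Hochberg. The intervals and floors (3 counts) cover counting error only. Gene positions came from GENCODE on GRCm38, and promoters and microRNAs from RefSeq (GRCm38.p6).

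In each list and direction up to 5 called genes with the largest fold change and at least 5 CPM, the 2 most abundant members, all genes of 25 paralog pairs, and the 15 leading genes per direction with at least 20 CPM were eligible to be named. The text names a selection of them, and any other gene was chosen after its values were seen. The 107 lists and the members were chosen with earlier results of these data known. Same-numbered libraries of both groups were not paired by any label. Alternatives were other scalings and filters, DESeq2 1.42.0, the 6 libraries alone, a 2-fold threshold, a replicate block, leaving out structural RNA and leaving out each library. Counts were also simulated from a common profile, with a small set of genes changed up or down at random. Of these changes (14354 genes tested) 61% of 2-fold and 97% of 4-fold ones were recovered, and 4.82% of calls were false. In the data most genes were called, and library composition differed between the groups. These shares therefore do not carry over to the calls reported here. Results for some genes are not reported here.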

Additional observations from a re-analysis of the deposited data

How the results depend on the processing

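Under the 15 alternative settings the number of genes higher at Stage1 ranged from 4502 (2-fold threshold) to 8406 (no filter), beside 6533, and the number lower from 3677 to 5448, beside 5337. DESeq2 called 7908 higher and 5435 lower. Fitted on the 6 libraries alone, 5171 were higher and 5189 lower. Of the genes called both as reported and under a setting, 0 had the opposite sign. Scaling by library totals moved the median log2 fold change by 0.18. Leaving out 1 library at a time gave 6414 to 6808 genes higher and 5102 to 5448 lower. Of 935 genes recomputed 0 reversed, and 44 had a changed call outside the 2-fold threshold.

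The replicate numbers of both groups did not pair the libraries: the correlations of deviations were -0.05, 0.04 and -0.06. With the replicate block 6500 genes were higher and 5274 lower.

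Of 84 lists with at least 5 members higher, that number moved by more than 1.5 times in 31 under the 2-fold threshold, in 28 on the 6 libraries alone, in 16 with no filter and in 14 with DESeq2. Of 78 lists with at least 5 members lower it moved in 29 under the 2-fold threshold and in 0 under the other 3 settings. With no filter orphan and adhesion receptors had 45 higher (16 as reported) against 34 lower, and homeobox factors 51 (32). On the 6 libraries alone ABC transporters had 12 higher (22) and myosins 16 (27). The 2-fold threshold left 14 of 42 higher translation factors, 9 of 29 tRNA synthetases, 36 of 63 tRNA modification enzymes and 125 of 199 Zfp genes.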
